A study of Rattus norvegicus with 12 samples.

Results

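The receptors for noradrenaline, dopamine, serotonin, histamine, acetylcholine and opioid peptides were followed across age in the rostral ventrolateral medulla (RVLM) of the rat. Members were taken by gene name from the array files: probes whose name starts with Adra, Adrb, Htr, Drd, Chrm, Chrn, Hrh or Opr followed by a digit or a subtype letter, without the adrenergic receptor kinases. The receptors described are 56 of the 18334 genes named on the array, on 69 probes. They comprise 8 adrenergic, 5 dopamine, 14 serotonin, 4 histamine and 5 muscarinic receptor genes, 16 nicotinic subunit genes and 4 opioid receptor genes.

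The RVLM holds neurons that set the sympathetic tone of heart and vessels, among them the C1 neurons, which make catecholamines. Most of the receptors named here are G protein-coupled. Those that couple to Gs raise cyclic AMP, those that couple to Gi or Go lower it and open potassium channels, and those that couple to Gq act through phospholipase C. The nicotinic receptors and the Htr3 receptors are ion channels instead. In this region the alpha2A-adrenergic receptor Adra2a and the serotonin receptor Htr1a are known for lowering sympathetic outflow, and opioid receptors for inhibiting bulbospinal neurons.

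Tissue micropunches came from male rats of the inbred strain F344. The young rats were 3 months old, the middle-aged 12 months and the aged 24 months, each group had 3 animals, and the labels give no treatment other than isoflurane before decapitation. Total RNA was labelled with 1 dye and read on 12 arrays for 9 animals, since replicate 3 of each age was hybridised to 2 arrays, which were averaged. The 3 young animals and the first middle-aged replicate shared slide 1, and middle-aged replicates 2 and 3 shared slide 2 with the first 2 aged replicates. Slide 3 carried aged replicate 3, on 2 arrays, with the repeat arrays of replicate 3 of the younger groups. Age and slide were thus partly confounded, and slide 3 alone held all ages.

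Between 73.5% and 77.1% of the spots of an array exceeded background clearly, and 0 spots were saturated. With 3 animals in a group, precision is limited by their number. Signals are given as log2 of the processed signal minus the 75th percentile of the array, so that 0 is the level of a bright spot and −5 or less is close to background. Levels of different probes are not comparable. Of the region's markers, the catecholamine enzymes Th and Dbh and the hindbrain genes Hoxa2 and Hoxa4 were well above background on the arrays, while the Pnmt enzyme of C1 neurons was not analysed here. Aged replicate 3, young replicate 2 and middle-aged replicate 3 stood apart from the other 6 animals on the second principal component of all items, at 26.5, 24.3 and 16.1 against −19.0 to 3.5. Where leaving out 1 animal turned the direction of a receptor described below or moved it widely, the value without that animal is given.

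The probes are 60 bases long, and their positions are those of the array files on the rat build rn3. The sequences shown belong to the receptor with the smallest p between aged and young animals (Htr3b), to the tested receptor with the widest range among animals (Htr5b), and to receptors whose probes disagreed. In the lower pair for Htr2a the capitals mark the 26 bases that both probes share. The other sequences carry no capitals.

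Htr5b, chr13:33548668-33548727, minus strand: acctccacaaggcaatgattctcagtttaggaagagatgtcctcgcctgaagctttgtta

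Htr3b, chr8:52229351-52229669, minus strand, well above background on 12 arrays: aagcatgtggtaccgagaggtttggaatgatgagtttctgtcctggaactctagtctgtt

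Htr3b, chr8:52218691-52218750, minus strand, well above background on 0 arrays: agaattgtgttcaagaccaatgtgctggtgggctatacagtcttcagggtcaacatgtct

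Chrm1, chr1:211497238-211510141, plus strand, well above background on 12 arrays: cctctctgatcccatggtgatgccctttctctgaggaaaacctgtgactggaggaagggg

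Chrm1, chr1:211511334-211511393, plus strand, well above background on 1 array: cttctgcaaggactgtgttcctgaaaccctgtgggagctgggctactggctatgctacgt

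Htr2a, chr15:55549339-55549398, plus strand, well above background on 12 arrays: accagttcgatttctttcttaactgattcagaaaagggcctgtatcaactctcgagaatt

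Htr2a, chr15:55547949-55548008, plus strand, well above background on 12 arrays: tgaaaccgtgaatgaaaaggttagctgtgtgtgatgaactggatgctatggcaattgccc

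Htr2a, chr15:55478750-55478809, plus strand, well above background on 0 arrays: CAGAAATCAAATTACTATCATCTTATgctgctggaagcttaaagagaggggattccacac

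Htr2a, chr15:55478716-55478775, plus strand, well above background on 3 arrays: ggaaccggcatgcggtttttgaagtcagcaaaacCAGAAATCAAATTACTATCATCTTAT

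The listed span of the brighter Htr3b probe and of the brighter Chrm1 probe is longer than the probe itself, so that these probes lie across spliced exons in the listed mapping. The exon or UTR in which each probe lies was not analysed here.

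Most of the receptors gave a signal in the punches. Of the 56 genes 43 had a probe well above background on all 4 arrays of some age and were tested, and 40 of these were so on all 12 arrays. By probe, 51 of 69 (73.9%) passed this filter, against 72.7% of all probes. The adrenergic family had 7 of 8 genes tested, the serotonin family 12 of 14, the muscarinic family 4 of 5, the dopamine family 3 of 5 and the nicotinic family 9 of 16. All 4 histamine and all 4 opioid receptor genes were tested. Genes below the filter were Adrb3, Drd1, Drd4, Htr1f, Htr4, Chrm5, and the nicotinic subunits Chrna1, Chrna2, Chrna9, Chrna10, Chrnb1, Chrnb3 and Chrnd. Of those nicotinic subunits 3, Chrna1, Chrnb1 and Chrnd, belong to the receptor of skeletal muscle. Its subunits Chrne and Chrng were tested, and Chrne was well above background on 12 arrays.

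Some receptors were below background in nearly every animal but not in all. Chrna10, a nicotinic subunit known from hair cells of the ear, was at −2.97 in young replicate 2 and at −8.43 to −6.14 in the other 8 animals. It was well above background on 2 young arrays, and the pair of arrays of young replicate 3 gave −4.73 and −7.56. Chrm5, a Gq-coupled muscarinic receptor, was at −4.86 in young replicate 2 and at −8.26 to −6.60 in the others. Drd4, a Gi-coupled dopamine receptor, was well above background on 2 arrays, both of aged animals, with values of −5.71 to −5.48 in aged, −6.62 to −6.03 in middle-aged and −6.70 to −6.30 in young animals. These genes were not tested.

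The comparison of aged with young animals covered the widest gap in age. Of the 43 receptors tested 0 passed at an adjusted p under 0.05 in limma, where 520 of all 25445 items passed (2.04%). At an unadjusted p under 0.05 there were 6, of which 2 were higher and 4 lower in aged animals (15.2% of all items). In 7 receptors the 3 aged animals lay outside the range of the 3 young, 3 above and 4 below (22.7% of all items). The receptors' counts were near or below these shares of the array. The median difference of the receptors was −0.02 on the log2 scale, with 21 higher and 22 lower, against 0.03 over all items, and 36 of the 43 differed by less than 0.5. With slide as a block the median was −0.10, and without aged replicate 3 it was −0.08. In the moderated F test over the 3 ages 0 of the 43 passed, against 293 of all items (1.15%), and 9 had an unadjusted p under 0.05 (12.3% of all items).

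**Figure D1:**
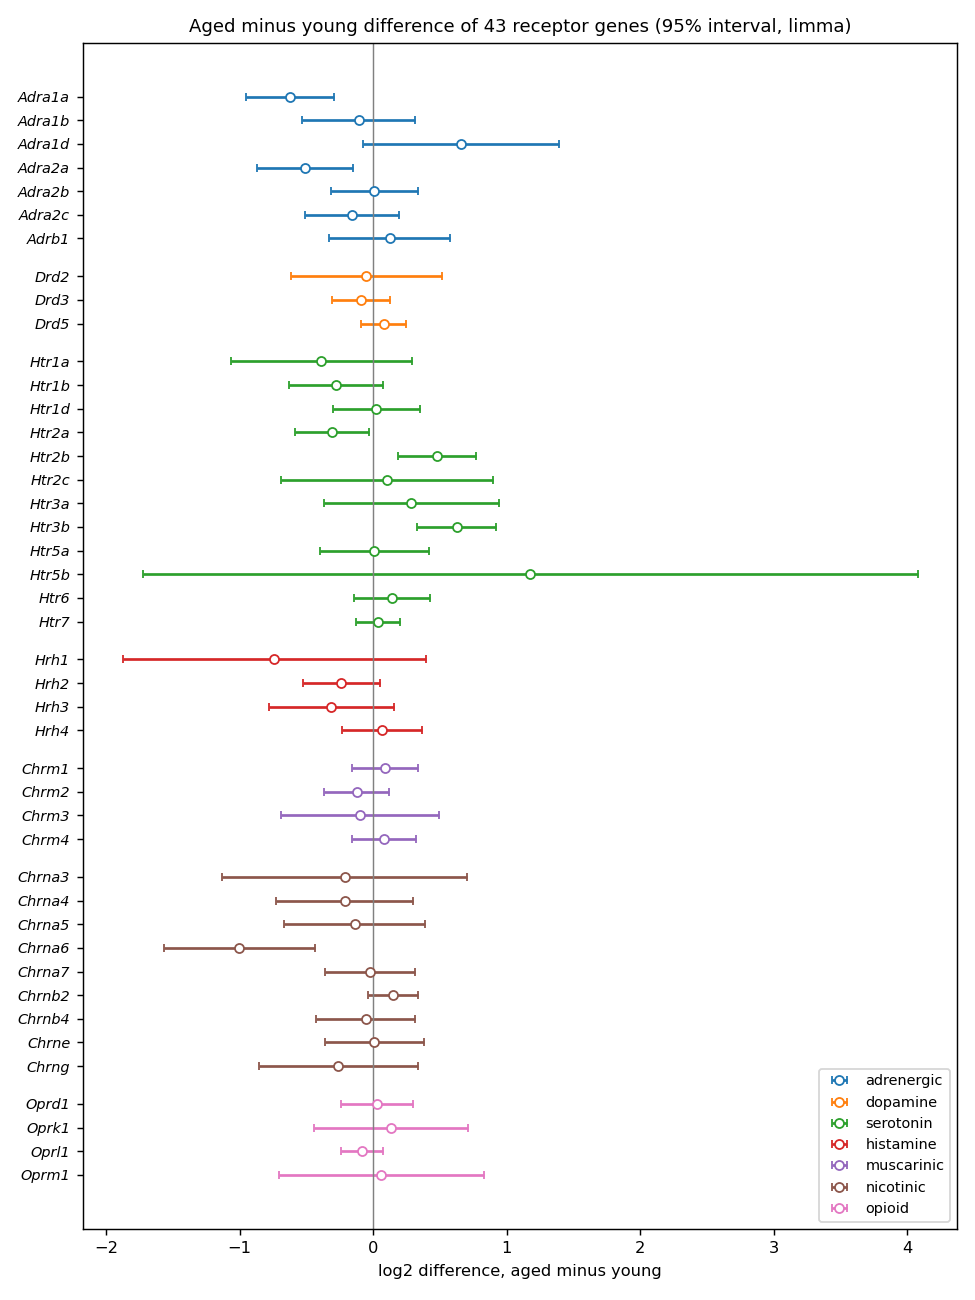
Log2 difference of aged minus young animals for each of the 43 receptor genes tested, with the 95% interval of the limma fit (3 animals per group), ordered and coloured by family. All points are open, since no difference passed, and the widest interval is that of Htr5b.

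The receptors with the smallest p and groups that did not overlap missed the threshold. Htr3b forms serotonin-gated cation channels together with Htr3a. Its log2 signal was −5.23, −5.04 and −4.87 in young, −5.02, −4.60 and −4.73 in middle-aged and −4.47, −4.47 and −4.33 in aged animals. Every aged animal was above all the others. The difference of aged from young animals was 0.62 ± 0.13 (adjusted p = 0.051), 0.33 with slide as a block (adjusted p = 0.36) and 0.19 with normexp (adjusted p = 0.66). The second Htr3b probe, whose sequence is shown above, was well above background on 0 arrays.

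Htr2b is a Gq-coupled serotonin receptor known from heart valves and microglia. It was at −3.46, −3.66 and −3.80 in young, −3.65, −3.56 and −3.29 in middle-aged and −3.23, −2.99 and −3.27 in aged animals. The aged animals were the 3 highest. The difference of aged from young animals was 0.48 ± 0.13 (adjusted p = 0.12) and 0.31 with slide as a block.

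Microglia are the resident macrophages of brain tissue, and their markers moved in the same direction as Htr2b. Of 15 markers tested 12 rose in aged against young animals, 0 fell and 3 did not pass (Csf1r, Itgam and Tmem119). Relative to the mean of the young animals, the median of the 15 was 0.77 to 1.07 in the aged animals and −0.09 to 0.09 in the young; it was 0.43 to 0.60 in the middle-aged. Tyrobp, a signalling adaptor of microglia, rose by 1.38 ± 0.11 (adjusted p = 0.00095) and Aif1, which encodes the protein Iba1, by 0.92 ± 0.10 (adjusted p = 0.0035). The part of microglia in the Htr2b difference was not tested. In a tissue punch, more cells of a type and more RNA per cell cannot be told apart.

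Of the alpha-adrenergic receptors, Adra1a couples to Gq and is the receptor through which noradrenaline excites many neurons. Its signal was −3.32, −2.80 and −3.31 in young, −3.36, −3.66 and −3.40 in middle-aged and −3.78, −3.70 and −3.81 in aged animals. Each age lay wholly below the one before it. The aged animals lay below the young by a difference of −0.62 ± 0.15, which did not pass (adjusted p = 0.078), and by −0.90 with slide as a block (adjusted p = 0.15) or −0.37 with normexp. With the authors' deposited matrix values in place of the scanner signal it passed, at −0.71 (adjusted p = 0.043).

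Adra2a, the receptor of clonidine-like drugs, was at −1.94, −1.40 and −1.89 in young, −1.62, −1.78 and −1.77 in middle-aged and −2.09, −2.17 and −2.49 in aged animals. The aged animals were the 3 lowest, while the young and the middle-aged overlapped. The aged lay below the young by −0.51 ± 0.16 (adjusted p = 0.18) and below the middle-aged by −0.53 ± 0.16 (adjusted p = 0.33). Without young replicate 2 the difference of aged from young animals was −0.34.

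Chrna6, a nicotinic subunit known from catecholamine neurons of the midbrain and pons, was at −5.87, −5.18 and −5.02 in young, −5.18, −5.73 and −5.93 in middle-aged and −6.23, −6.52 and −6.33 in aged animals. Only 2 of the 4 aged arrays were well above background, against all 4 arrays of each other age. The difference of aged from young animals was −1.0 ± 0.25 (adjusted p = 0.092). Chrna6 is counted among the receptors above, but it met the filter through the younger groups, in which it was higher. A lower aged value is thus partly fixed by the filter, and the size of the difference is uncertain. It was −0.16 with normexp, −1.57 within slide 3 and −1.26 without young replicate 1. The catecholamine enzyme Dbh was at 0.95, 1.22 and 0.61 in young, 0.57, 0.41 and 0.58 in middle-aged and 0.04, −0.39 and 0.38 in aged animals. Its difference of aged from young animals was −0.92 ± 0.20 (adjusted p = 0.066). The enzymes Th and Ddc differed by −0.04 ± 0.26 and −0.29 ± 0.16. Of 6 markers of C1 neurons tested 0 passed, with a median difference of −0.31. The part of catecholamine neurons in the Chrna6 values was not tested.

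**Figure D2:**
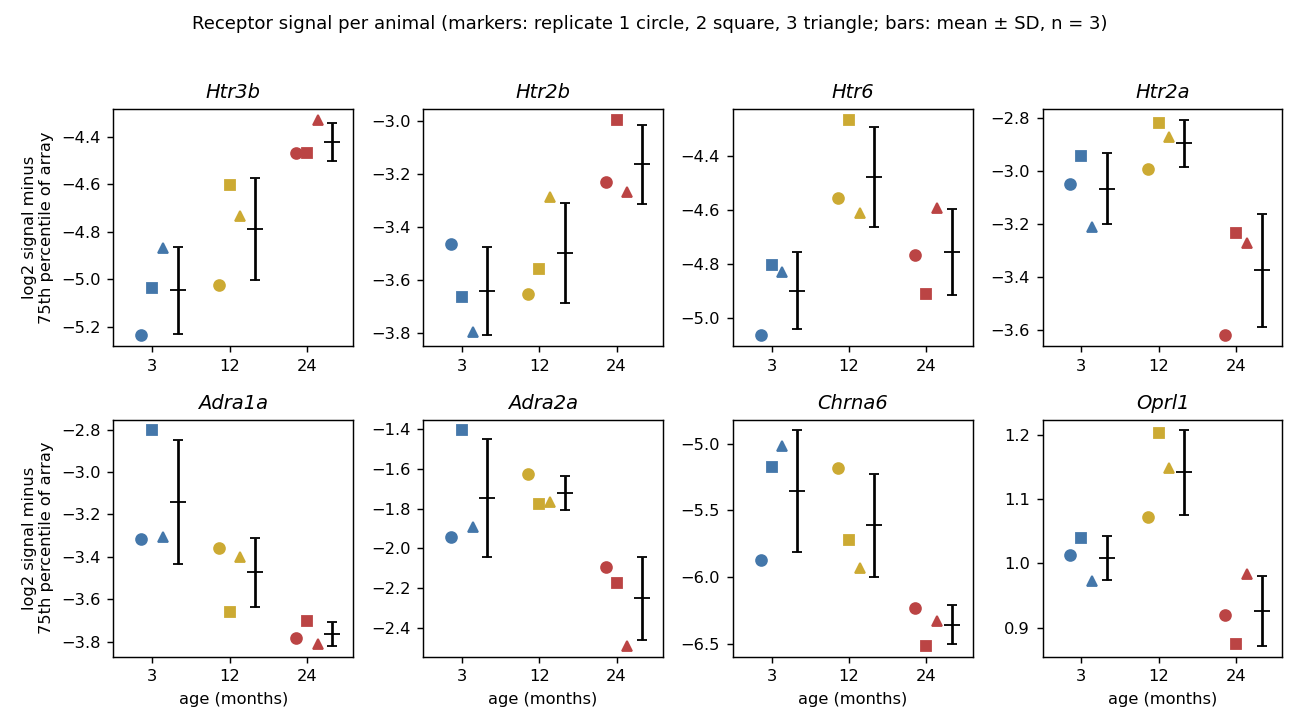
Log2 signal minus the 75th percentile of the array for 8 receptors at 3, 12 and 24 months; each point is 1 animal, with the shape giving its replicate number, and bars give the mean and SD of 3 animals. In each of the 8 the difference of aged from young animals did not pass, and the vertical scale differs between panels.

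Among the serotonin receptors with known roles in sympathetic control, Htr1a couples to Gi and was printed on 10 spots per array. It was at −3.20, −3.79 and −3.03 in young, −3.18, −3.50 and −3.77 in middle-aged and −3.39, −3.43 and −4.37 in aged animals. The groups overlapped, and the difference of aged from young animals was −0.39 ± 0.30 (adjusted p = 0.58), or −0.07 without aged replicate 3. Its 10 spots on an array had a median SD of 0.12, against 0.43 among animals of a group.

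Htr2a, a Gq-coupled receptor of excitatory serotonin action, was at −3.05, −2.94 and −3.21 in young, −2.99, −2.82 and −2.87 in middle-aged and −3.62, −3.23 and −3.27 in aged animals. The aged animals were the lowest, by −0.31 ± 0.12 from the young (adjusted p = 0.28), and by −0.12 within slide 3. The second detected Htr2a probe, on 10 spots, gave −0.30 ± 0.19 for the same difference, and on it the aged and young animals overlapped. Htr3a, the obligatory subunit of serotonin-gated channels, was at −2.04, −1.91 and −1.81 in young, −1.05, −1.05 and −1.85 in middle-aged and −1.82, −1.03 and −2.06 in aged animals. Its 3 highest animals stood about 0.76 above the next, in 2 different ages, and the difference of aged from young animals was 0.28 ± 0.29 (adjusted p = 0.68). Without aged replicate 2 it was −0.02, and without aged replicate 3 it was 0.50.

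Adrb1, the beta1-adrenergic receptor, which couples to Gs, was at −5.01, −4.79 and −4.80 in young, −4.70, −4.78 and −4.81 in middle-aged and −5.16, −4.84 and −4.24 in aged animals. Its groups overlapped, with a difference of aged from young animals of 0.12 ± 0.20 (adjusted p = 0.81) that turned to −0.13 without aged replicate 3 and was 0.61 within slide 3. Drd2, a Gi-coupled dopamine receptor and autoreceptor, was at −2.69, −2.77 and −2.16 in young, −2.11, −2.24 and −2.73 in middle-aged and −2.23, −2.52 and −3.03 in aged animals. Its groups overlapped too (aged minus young −0.05 ± 0.25, adjusted p = 0.95), and the difference was −0.23 without aged replicate 1 and 0.17 without aged replicate 3.

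The histamine receptors Hrh1, Gq-coupled and excitatory, and Hrh3, a Gi-coupled autoreceptor, varied within each age. Hrh1 was at −3.51, −2.17 and −4.19 in young, −3.62, −3.60 and −2.75 in middle-aged and −4.42, −4.27 and −3.41 in aged animals. Hrh3 was at −0.78, −0.67 and −1.33 in young, −0.83, −1.15 and −0.58 in middle-aged and −1.22, −1.48 and −1.02 in aged animals. Both overlapped between the ages. The difference of aged from young animals was −0.74 ± 0.50 for Hrh1 (adjusted p = 0.52) and −0.31 ± 0.21 for Hrh3 (adjusted p = 0.52), and without young replicate 2 it was −0.18 for Hrh1 and −0.19 for Hrh3. Without young replicate 3 it was −1.19 for Hrh1 and −0.51 for Hrh3.

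Of the acetylcholine receptors, the Gi-coupled muscarinic Chrm2 had a narrow range, at −2.20, −2.26 and −2.31 in young, −2.25, −2.51 and −2.14 in middle-aged and −2.43, −2.46 and −2.25 in aged animals. Chrm3, Gq-coupled, was at 0.95, 1.47 and 0.96 in young, 0.54, 1.16 and 1.38 in middle-aged and 0.92, 0.72 and 1.44 in aged animals. Both overlapped between the ages. Their differences of aged from young animals were −0.12 ± 0.11 (adjusted p = 0.63) and −0.10 ± 0.26 (adjusted p = 0.89). For Chrm3 the difference was −0.31 without aged replicate 3 and 0.07 without young replicate 2.

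Chrna4 and Chrnb2 assemble into the common high-affinity nicotinic receptor of the brain. Chrna4 was at −0.65, −0.06 and −0.85 in young, −0.65, −0.82 and −0.29 in middle-aged and −0.91, −0.86 and −0.44 in aged animals. Chrnb2 was at −3.18, −3.27 and −3.15 in young, −3.25, −3.15 and −3.23 in middle-aged and −3.18, −3.03 and −2.94 in aged animals. Aged and young animals overlapped in both, and neither difference passed (−0.21 ± 0.23, adjusted p = 0.69, and 0.15 ± 0.08, adjusted p = 0.43). For Chrna4 the difference was 0.01 without young replicate 2 and −0.38 without young replicate 3. Chrna7, which forms channels on its own and is also known from macrophages, was at 0.83, 0.81 and 0.79 in young, 0.90, 0.36 and 0.81 in middle-aged and 1.00, 0.66 and 0.70 in aged animals (aged minus young −0.02 ± 0.15, adjusted p = 0.96). The 95% interval of that difference was −0.36 to 0.31, and it was −0.13 without aged replicate 1 and 0.04 without aged replicate 2.

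The opioid receptors all couple to Gi. Oprm1, the receptor of morphine, was at −3.79, −4.01 and −3.35 in young, −3.21, −2.94 and −3.88 in middle-aged and −3.76, −3.0 and −4.21 in aged animals. Oprd1, the delta receptor, was at −1.34, −1.11 and −1.29 in young, −1.36, −1.13 and −1.16 in middle-aged and −1.39, −1.25 and −1.0 in aged animals. In both the ages overlapped, with differences of aged from young animals of 0.06 ± 0.34 (adjusted p = 0.95) and 0.03 ± 0.12 (adjusted p = 0.94). Without single animals these ranged from −0.27 to 0.34 for Oprm1, the ends coming without aged replicate 2 and 3, and from −0.08 to 0.12 for Oprd1, without aged replicate 3 and 1. Oprk1, the dynorphin receptor, was at −1.96, −2.37 and −1.47 in young, −1.57, −1.67 and −2.07 in middle-aged and −1.50, −1.71 and −2.20 in aged animals (aged minus young 0.13 ± 0.25, adjusted p = 0.84), and its difference was −0.08 without young replicate 2 and 0.36 without young replicate 3. The genes of their peptides did not pass either, with differences of aged from young animals of 0.02 ± 0.12 for Penk, 0.46 ± 0.50 for Pdyn, −0.24 ± 0.14 for Pomc and −0.01 for Pnoc.

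Between middle-aged and young animals 0 of the 43 receptors passed in limma, where 51 of all items did (0.200%). At an unadjusted p under 0.05 there were 4, of which 2 were higher and 2 lower in middle-aged animals (6.35% of all items). In 9 receptors the groups did not overlap, 6 higher and 3 lower (11.4% of all items). Both counts were above these shares of the array. This was not tested, since the members were chosen with earlier results known. The median difference was 0.03, against 0.01 over all items, and 0.11 without young replicate 2. The smallest p belonged to Htr6, a Gs-coupled serotonin receptor, which was at −5.06, −4.80 and −4.83 in young, −4.55, −4.26 and −4.61 in middle-aged and −4.77, −4.91 and −4.59 in aged animals. Its middle-aged animals were all above the young ones (0.42 ± 0.13, adjusted p = 0.45), but the difference was 0.21 with slide as a block, 0.50 within slide 1 and −0.02 within slide 3.

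Htr1d, a Gi-coupled serotonin receptor, was at −2.97, −3.26 and −2.94 in young, −2.73, −2.42 and −2.87 in middle-aged and −3.22, −2.91 and −2.96 in aged animals (middle-aged minus young 0.38 ± 0.14, adjusted p = 0.67). Its middle-aged animals, too, were all above the young ones, and the difference was 0.28 with slide as a block, 0.34 within slide 1 and −0.05 within slide 3. Chrng, the fetal subunit of the muscle nicotinic receptor, and Hrh2, a Gs-coupled histamine receptor, were close to background.

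Chrng was at −5.44, −5.69 and −5.23 in young, −6.40, −5.89 and −5.99 in middle-aged and −5.96, −5.10 and −6.10 in aged animals, with 1 of 4 middle-aged and 2 of 4 aged arrays well above background. Hrh2 was at −5.61, −5.55 and −5.16 in young, −5.72, −5.67 and −5.83 in middle-aged and −5.66, −5.81 and −5.57 in aged animals. The middle-aged animals were all below the young in both. Chrng met the filter through the young group alone, where it was highest, so its lower middle-aged level is partly fixed by the filter and is given as a description, although it is counted among the receptors above. For Hrh2 the difference was −0.30 ± 0.13 (adjusted p = 0.75), −0.09 within slide 1 and −1.13 within slide 3. Adra1a, whose values are given above, was lower in each middle-aged than in each young animal, by −0.33 ± 0.15 (adjusted p = 0.79), and by −0.15 within slide 1 and −0.37 within slide 3. Chrna3, a ganglionic nicotinic subunit, was higher in each middle-aged than in each young animal, by 0.82 ± 0.40 (adjusted p = 0.85).

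Between aged and middle-aged animals 0 of the 43 receptors passed in limma, where 3 of all items did (0.0118%). At an unadjusted p under 0.05 there were 8, of which 2 were higher and 6 lower in aged animals (10.7% of all items), and in 9 the groups did not overlap, 2 higher and 7 lower (17.0% of all items). Both counts were above these shares of the array too, which was likewise not tested. The median difference was −0.08, with 16 higher and 27 lower, against 0.02 over all items. It ranged from −0.02 with normexp to −0.16 with every kept probe as its own item. The smallest p was that of Htr2a, whose aged animals all lay below the middle-aged (−0.48 ± 0.12, adjusted p = 0.28). On the second detected Htr2a probe these groups overlapped, with a difference of −0.33 ± 0.19. Oprl1, the receptor of nociceptin, was at 1.01, 1.04 and 0.97 in young, 1.07, 1.20 and 1.15 in middle-aged and 0.92, 0.87 and 0.98 in aged animals. Every middle-aged animal was above all others, and the aged lay below the middle-aged by −0.22 ± 0.07 (adjusted p = 0.36). The second Oprl1 probe, well above background on 12 arrays, gave −0.23 ± 0.10 for this difference. Its groups overlapped, with middle-aged replicate 3 at −3.20 and aged replicate 2 at −3.16, and its middle-aged animals were not all above the young.

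Other receptors named above had the same direction in this comparison as against the young animals. Chrna6 differed by −0.75 ± 0.25 in aged against middle-aged animals (adjusted p = 0.37). For Chrna6 the filter partly fixed the lower aged value here too, although it is in the counts of this comparison. Htr3b differed by 0.37 ± 0.13 (adjusted p = 0.40) and Htr2b by 0.34 ± 0.13 (adjusted p = 0.42), which was −0.01 within slide 3. The aged animals are the same in both comparisons.

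By family, the medians of the differences of aged from young animals lay between −0.28 for the 4 histamine receptors and 0.07 for the 12 serotonin receptors. In the adrenergic family 3 of 7 were higher in aged animals, in the dopamine family 1 of 3, in the serotonin family 9 of 12, in the histamine family 1 of 4, in the muscarinic family 2 of 4, in the nicotinic family 2 of 9 and in the opioid family 3 of 4, against 57.8% of all items. None of these differences passed. Chrna6, Chrng and Hrh2, counted here as lower, were well above background on 2 of 4 aged arrays and on all 4 young ones. The filter thus partly fixed their lower aged values, and with them the counts and medians that include them. By signalling, the medians were 0.08 for the 5 Gs-coupled members tested, −0.05 for the 17 Gi-coupled, −0.10 for the 9 Gq-coupled and −0.06 for the 11 ion channel subunits. Htr5b, with a difference of 1.18, was in none of these classes. The median over all items was 0.03.

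The genes that act with these receptors were read from 7 lists with 88 genes tested: transmitter enzymes and transporters, opioid peptide precursors, receptor kinases and arrestins, G protein subunits, adenylyl cyclases and phospholipase C, RGS proteins, and nicotinic assembly factors. In aged against young animals 1 rose (1.14%, against 2.04% of all items passing in either direction), 0 fell and 12 had an unadjusted p under 0.05 (13.6%, against 15.2% of all items). The riser was Plcb2, a phospholipase C of blood-derived cells, at 0.85 ± 0.11 (adjusted p = 0.0068). Next by p were Rgs10, a regulator of G protein signalling known from microglia, at 0.49 ± 0.11 (adjusted p = 0.062), Dbh, given above, and Rgs1, known from lymphocytes, at 0.95 ± 0.22 (adjusted p = 0.072). In middle-aged against young and in aged against middle-aged animals 0 of the 88 passed, with 4 and 7 at an unadjusted p under 0.05 (4.55%, against 6.35% of all items, and 7.95%, against 10.7%).

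The receptors varied more among animals than most items did. The range over the 9 animals had a median of 0.80 for the 43 receptors and 0.48 for all items, and it was over 1 for 12 receptors (27.9%) and for 12.8% of items. The pair of arrays of a single animal differed by a median of 0.09 and by at most 1.15, in Hrh2 of young replicate 3. Dim receptors differed widely within some pairs, as Chrna6 by 0.98 in aged replicate 3 and Htr6 by 0.95 in young replicate 3. The widest range among the 43, 5.39, was that of Htr5b, a serotonin receptor functional in rodents. It was at −2.92, −0.16 and −3.03 in young, −2.36, −2.14 and −2.66 in middle-aged and −2.47, −2.46 and 2.36 in aged animals. Aged replicate 3 and young replicate 2 were high, and both arrays of aged replicate 3 gave this level (2.37 and 2.35). The difference of aged from young animals was 1.18 ± 1.27 (adjusted p = 0.70).

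The items closest to Htr5b over the 9 animals were picked after their values were seen. By Pearson correlation they were Klhdc3 (0.967), Tbc1d10c (0.944) and C1ql1 (0.939), followed by Mepe (0.937). Aged replicate 3 was the highest animal in each, so these correlations rest largely on it. C1ql1 is a secreted protein known from climbing fibre neurons of the inferior olive. C1ql1 was at 1.57 in aged replicate 3, at 0.37 in young replicate 2 and at −0.38 to 0.05 in the others. The part of neighbouring tissue in the Htr5b values was not tested.

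In 9 of the 43 receptors (20.9%) aged replicate 3, young replicate 2 and middle-aged replicate 3 were either the 3 highest or the 3 lowest animals, which held for 6.36% of all items. This order was noticed after the values were seen, has no test, and cuts across age, with 1 animal from each group. Highest in these 3 animals were Hrh1, Chrm3, Chrna4 and Adra1b, a Gq-coupled adrenergic receptor. Adra1b was at 0.93, 1.56 and 0.98 in young, 0.96, 1.00 and 1.34 in middle-aged and 0.99, 0.90 and 1.25 in aged animals. Lowest in them were Htr1a, Oprk1, Oprm1, Drd2 and Htr2c, a Gq-coupled serotonin receptor. Htr2c was at −2.49, −2.82 and −1.89 in young, −2.08, −2.06 and −3.15 in middle-aged and −2.09, −2.04 and −2.75 in aged animals.

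Of 10 hindbrain position genes tested, 4 had the same 3 animals highest: Hoxb3, Hoxa4, Hoxc4 and Hoxa5 (4.51% of all items had them highest). Of other marker lists, Phox2a of catecholamine neurons and the forebrain marker Neurod6 were also highest in these animals, and Slc5a7 and Isl1 of motor neurons and Gata2 of serotonin neurons were lowest in them. Hoxa5 was at 2.73, 3.56 and 1.41 in young, 1.91, 2.31 and 3.31 in middle-aged and 1.63, 1.40 and 2.98 in aged animals. The position of the punches, and its part in the receptor values, was not tested.

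In 4 receptors middle-aged replicates 1 and 2 and aged replicate 2 were the 3 highest animals (9.30%, against 1.23% of all items): Htr3a, Oprm1, Drd5 and Chrna3. The second Oprm1 probe did not have aged replicate 2 among its 3 highest animals. Chrna3 was at −3.56, −3.53 and −4.01 in young, −3.03, −2.46 and −3.16 in middle-aged and −4.66, −2.91 and −4.18 in aged animals. Of 6 markers of cholinergic motor neurons tested, 4 had the same 3 animals highest: Chat, Slc5a7, Slc18a3 and Prph. Slc5a7, the choline transporter, was at 1.74, 0.72 and 2.15 in young, 2.50, 2.81 and 1.61 in middle-aged and 1.65, 2.52 and 0.93 in aged animals. This set of 3 animals was likewise picked after the values were seen, so its share among the receptors has no test and supports nothing. The part of motor neurons in the receptor values was not tested.

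**Figure D3:**
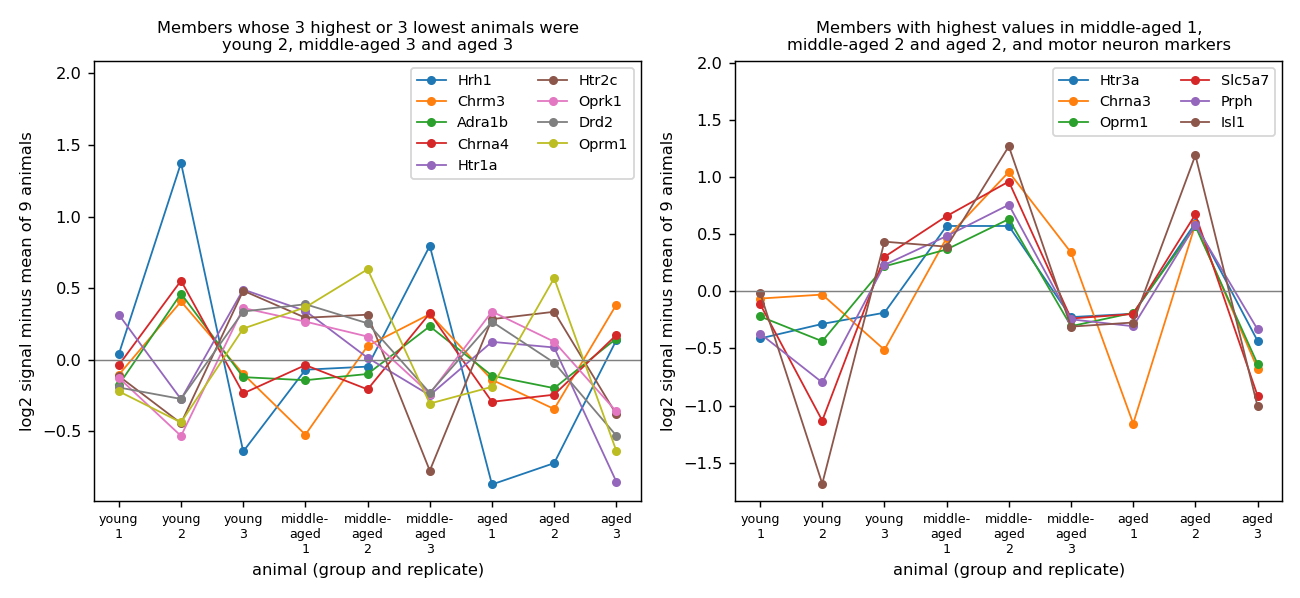
Log2 signal of each gene minus its mean over the 9 animals, with lines joining the animals of a gene. Left, the 9 receptors whose 3 highest or 3 lowest animals were young 2, middle-aged 3 and aged 3; right, Htr3a, Chrna3 and Oprm1, highest in middle-aged 1, middle-aged 2 and aged 2, beside the motor neuron markers Slc5a7, Prph and Isl1.

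Several receptors had more than 1 probe, and for 9 genes the brightest kept probe was used. For Htr2a the 2 probes at the higher coordinates were well above background on 12 arrays, and the 2 that share 26 bases, near position 55478750 of chr15, were so on 0 and 3 arrays. One of these was at −3.21 in middle-aged replicate 1 and at −8.61 to −4.68 in the other animals. For Chrna7 the probe on 10 spots averaged 0.81 in young animals and another, whose listed position overlaps it by 36 bases, was at −3.51 to −2.79. The longest run shared by these probes was 6 bases, so the listed positions and the sequences do not go together. Their differences of aged from young animals were −0.02 and −0.09. For Oprm1 the 2 probes gave the same 3 animals lowest.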

How the data were processed

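RNA of 9 RVLM samples was read on 12 arrays with 1 dye. The deposited scanner files hold linear intensity from Agilent Feature Extraction 9.5.1.1, a version the submitters' processing notes give, and their processed signal is background-subtracted, per the file headers. The authors' deposited series matrix holds a score centred and scaled within each array, with log base unstated, and served as an alternative. Flags of outlier and dim spots in the deposited files are other values, 0 or 1.

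Log2 signals were averaged over spots of a probe, the 75th percentile of the array was subtracted, and both arrays of replicate 3 were averaged. Probes well above background on all 4 arrays of some age were kept (29797 of 41012), and the brightest kept probe stood for a gene, which gave 25445 items. The 3 ages were compared over the 9 animals in R 4.3.3 using lmFit and eBayes of limma 3.58.1, and two-sided p-values were adjusted by Benjamini and Hochberg over all items. Tests at 0.05 were checked on simulated data of the comparison of aged with young animals. There 91 of 100 items changed by 1 log2 unit and 98 of 100 changed by 2 were recovered among 25445, with 11 false calls. The changed items were drawn from all items, whose median standard error was 0.11 against 0.16 for the receptors. The shares recovered are thus not those of the receptors. Names were updated through the RefSeq table of GRCr8. Other normalizations, filters, blocks and fits without single animals were tried as alternatives.

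Members and lists were chosen with earlier results of these data known. Members given with values were those past the threshold, up to 6 with the smallest p among those whose groups did not overlap in each comparison, and 18 with known roles in the region. Outside this rule Htr5b, Adra1b and Htr2c, and the untested Chrna10, Chrm5 and Drd4, are given for values seen in these data. The name rule matched 58 genes, of which 2 are not reported here; they stayed in the fits and in the adjustment and are left out of the counts of receptors.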

Additional observations from a re-analysis of the deposited data

How the results depend on the processing

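The count of receptors passing in aged against young animals was 1, in place of 0, with the deposited matrix values (Adra1a), with probes well above background on every array (Htr3b) and with the replicate block (Htr3b), and 0 to 1 without single animals. The 1 came without young replicate 1 (Chrna6) and without middle-aged replicate 1 or 2 (Htr3b). The replicate numbers share only a number: same-numbered animals correlated at −0.41 to 0.37 in their deviations. The counts of 0 in the other comparisons and in the F test stayed 0 under every setting run. The median difference of aged from young receptors was −0.0825 with quantile normalization, −0.103 with the matrix values, −0.0953 with slide as a block, 0.0984 within slide 3, where its sign changed, and −0.0760 to −0.0186 without single animals. For middle-aged against young animals it was 0.0042 to 0.113 without single animals, and for aged against middle-aged animals −0.0219 with normexp, −0.151 with the matrix values, −0.141 with slide as a block and −0.161 by probe. Of 668 values of 33 results on single receptors under other settings 6 passed newly. Values within a slide have no test and were compared with the spread among animals, and 27 of them moved by more than it. The other 635 either did not pass, whatever their size, or were within-slide values that stayed within the spread. None of the 33 passed in the analysis as reported, and 32 of their values under other settings changed sign. The causes were not tested. Receptors near −5 or lower lie close to background, and some of their differences moved widely: in aged against young animals Chrna6 was at −0.16 and Htr3b at 0.19 with normexp.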
